A study of Mus musculus with 2 samples.

Results

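Of 39429 non-control probes on the array, 10280 (26.1%) carry no RefSeq transcript in the name that the scanner files give their target. They were chosen by that name, as those whose name begins with none of the RefSeq prefixes NM, NR, XM and XR. After spots marked as outliers were left out, 10278 of them remained, beside 29147 probes with a RefSeq name. An expression array of this kind carries such probes because its design drew on more than curated genes. Full-length cDNA clones, single expressed sequence tags (ESTs, short reads from the end of a cDNA), assemblies of ESTs and automatic genome annotation all entered the collections from which probes were drawn. Some of these records are alternative ends or splice forms of known genes, and some are non-coding RNAs or pseudogenes. A probe reports any labelled RNA that binds it, so such a name is less sure than that of a curated gene.

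The study set cells of epididymal fat from male C57/BL mice side by side after adipogenic differentiation in culture. Fat was digested with collagenase and spun briefly, and the lower phase gave the stromal vascular cells (SVC). The floating cells were spun again, and what sedimented was taken as small proliferative adipocytes (SPA). Both were grown in DMEM to 90% confluency, then held for 3 days with insulin, dexamethasone and IBMX, the usual adipogenic mixture, and for 2 days in DMEM alone. The differentiated cells are called SPAD and SVCD below. Each was measured on 1 array, from 30 ng of RNA labelled with Cy3, so no difference has a replicate check and no p-value is given. The sources used here do not give how many animals or cultures stood behind each RNA, and fewer cells of a type cannot be told apart from less RNA per cell.

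The defining markers of fat cells were read on probes with RefSeq names. Adipoq (adiponectin) had a processed intensity, the background-subtracted brightness of its spots, of 336 in SPAD and 22.7 in SVCD, and Plin1, which coats lipid droplets, had 479 and 29.0. Fabp4 read 108495 in SPAD and 31257 in SVCD and Pparg 1589 and 441, so both were also well detected in SVCD. Lep (leptin) was above background on neither array. Of the preadipocyte markers, Pdgfra read 371 in SPAD and 265 in SVCD, and Dlk1 53.1 and 148. Markers of other cells that fat holds also differed. The macrophage receptor Csf1r read 3185 in SPAD and 58410 in SVCD, the mesothelial gene Msln 93.3 and 2392, the smooth muscle actin Acta2 5037 and 75016, and the endothelial cadherin Cdh5 3297 and 451. Not every marker of these lists moved with the others: the smooth muscle myosin Myh11 read 218 and 162, and the endothelial receptor Kdr 2090 and 3202. The part of these cell types in the differences given below was not tested.

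The names fell into 69 letter prefixes, which were gathered into 8 classes by prefix. The largest class held 2839 probes that the files name only by their own probe ID. It was followed by 2479 probes with an AK accession, most of which are RIKEN full-length mouse cDNA clones, and by 2268 with an Ensembl mouse transcript (ENSMUST). A further 931 had a name beginning with NAP, whose source the files do not give. There were 567 probes named by single ESTs, 504 by tentative consensus sequences built from ESTs (TC), 303 by full-length clones of the Mammalian Gene Collection and like projects (BC), and 387 by other accessions. The files hold no probe sequence, so none is shown.

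A probe counted as detected where the scanner software had marked it well above the local background. Of the members, 5374 (52.3%) were detected in SPAD and 5441 (52.9%) in SVCD. Of probes with a RefSeq name, 68.7% and 70.1% were. In all, 4942 members (48.1%) were detected on both arrays, 432 in SPAD alone, 499 in SVCD alone and 4405 (42.9%) on neither. The classes spread widely, while both arrays gave almost the same share within each class. NAP probes were detected most often, in 73.6% of cases in SPAD and 73.7% in SVCD, and BC clones came next with 63.4% and 64.4%. ENSMUST transcripts (53.3% and 54.9%), AK clones (51.7% and 51.9%), own-ID probes (51.2% and 51.4%) and TC assemblies (48.6% and 49.8%) lay close together. Single ESTs (32.8% and 35.3%) and other accessions (31.3% and 30.5%) were detected least often. Within RefSeq the shares ran from 70.9% and 72.4% of NM transcripts, the curated messenger RNAs, to 44.8% and 44.6% of NR transcripts, the curated non-coding RNAs.

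**Figure D1:**
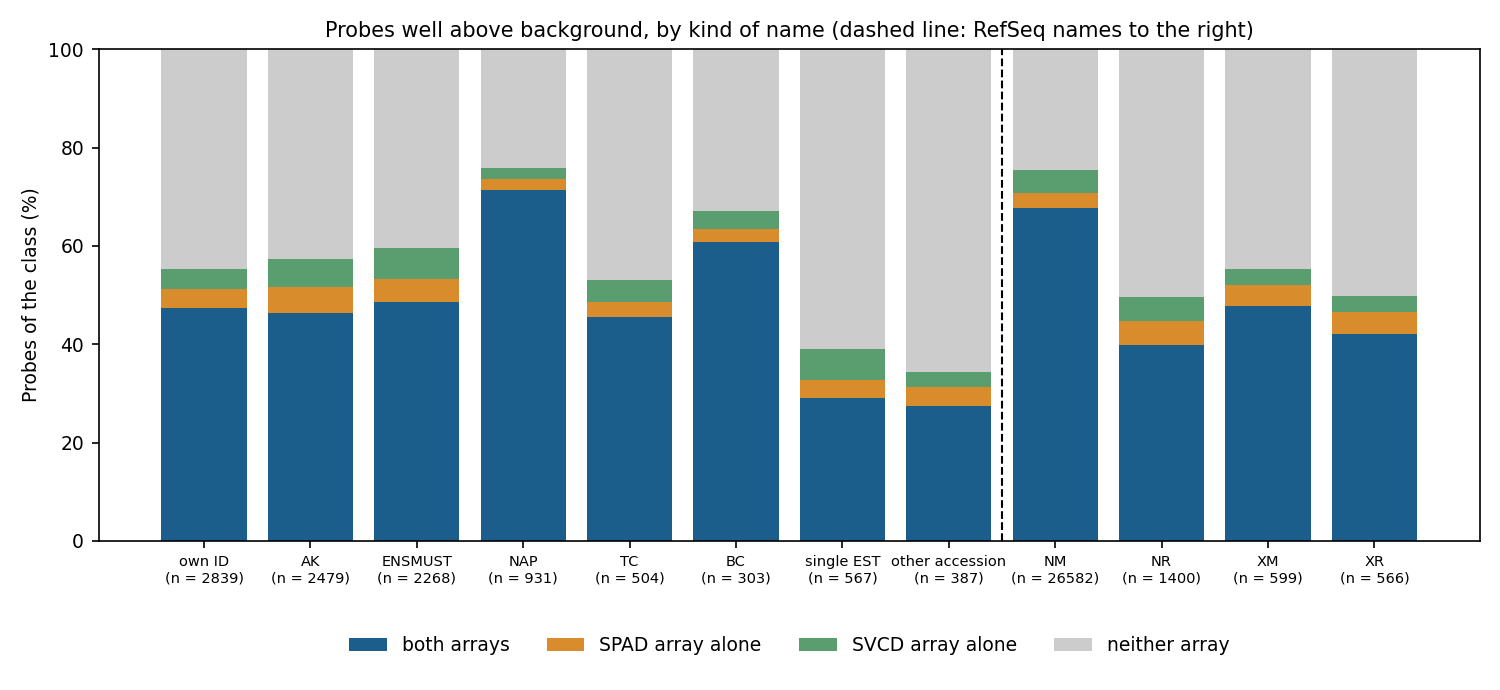
Share of probes (percent) detected well above background on the SPAD and the SVCD array, for each class of members and for the 4 kinds of RefSeq name. Both arrays sit together within each class, from 73.6% and 73.7% of NAP probes to 31.3% and 30.5% of other accessions.

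Differences are given as log2 SPAD minus SVCD, after each array was scaled to the 75th percentile of its own non-control probes. Among members detected on both arrays, SPAD exceeded SVCD by 2-fold or more in 728 (14.7%) and fell short of it by 2-fold or more in 341 (6.90%). The background over all non-control probes was 14.3% higher and 11.6% lower, and over RefSeq probes it was 14.2% and 12.9%. The higher share of the members thus lay near the background, and the lower share was below it. Of the members past 2-fold, 68.1% were higher in SPAD, against 52.4% for RefSeq probes. The median difference was 0.13 for the members and 0.07 for RefSeq probes, and single members ran from −5.65 to 8.02. At 4-fold the members counted 221 higher (4.47%) and 97 lower (1.96%), and RefSeq probes 795 (4.16%) and 839 (4.39%). At 16-fold 19 members (0.384%) were higher and 9 (0.182%) lower, and 94 (0.492%) and 123 (0.644%) of the RefSeq probes were. The direction of this split depended on the scale. When both arrays were set to 8 spike-in probes in place of the 75th percentile, 281 members were higher and 1476 lower, so that 15.99% of those past 2-fold were higher, against 11.6% for RefSeq probes. That scaling moved the median of all probes detected on both arrays from 0.09 to −0.75, and signs below are relative to the 75th percentile.

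The same split differed between classes. Under this scaling AK clones had the most members past 2-fold, with 230 of 1148 (20.03%) higher and 106 (9.23%) lower and a median of 0.23. They were dim, with median intensities of 84.7 in SPAD and 76.9 in SVCD. With normexp background correction, which adds an offset to both arrays, AK clones counted 108 higher and 52 lower. Own-ID probes then counted more, 147 and 45. NAP probes had few, with 45 of 665 (6.77%) higher and 38 (5.71%) lower and a median of 0.05. Own-ID probes counted 204 of 1342 (15.2%) higher and 68 (5.07%) lower. ENSMUST transcripts counted 151 of 1103 (13.7%) and 87 (7.89%), TC assemblies 31 of 229 (13.5%) and 15 (6.55%), BC clones 22 of 184 (11.96%) and 11 (5.98%), single ESTs 24 of 165 (14.5%) and 10 (6.06%), and other accessions 21 of 106 (19.8%) and 6 (5.66%). Under this scaling more members were higher than lower in each of the 8 classes, from 54.2% of those past 2-fold among NAP probes to 77.8% among other accessions. The NAP split turned round under other settings, with 38 higher and 42 lower after quantile normalization, 39 and 46 after median scaling, and 7 and 10 at 4-fold. With spike-in scaling more members were lower in all 8 classes. The curated and predicted non-coding transcripts with RefSeq names, NR and XR, stood at 155 of 795 (19.5%) higher and 56 (7.04%) lower, with 73.5% of those past 2-fold higher. The predicted messenger RNAs with RefSeq names, XM, stood at 36 of 286 (12.6%) higher and 15 (5.24%) lower, or 70.6% higher. NM transcripts stood at 2520 and 2387, or 51.4%. These are counts from 1 pair of arrays, and no test of a class against another could be made.

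**Figure D2:**
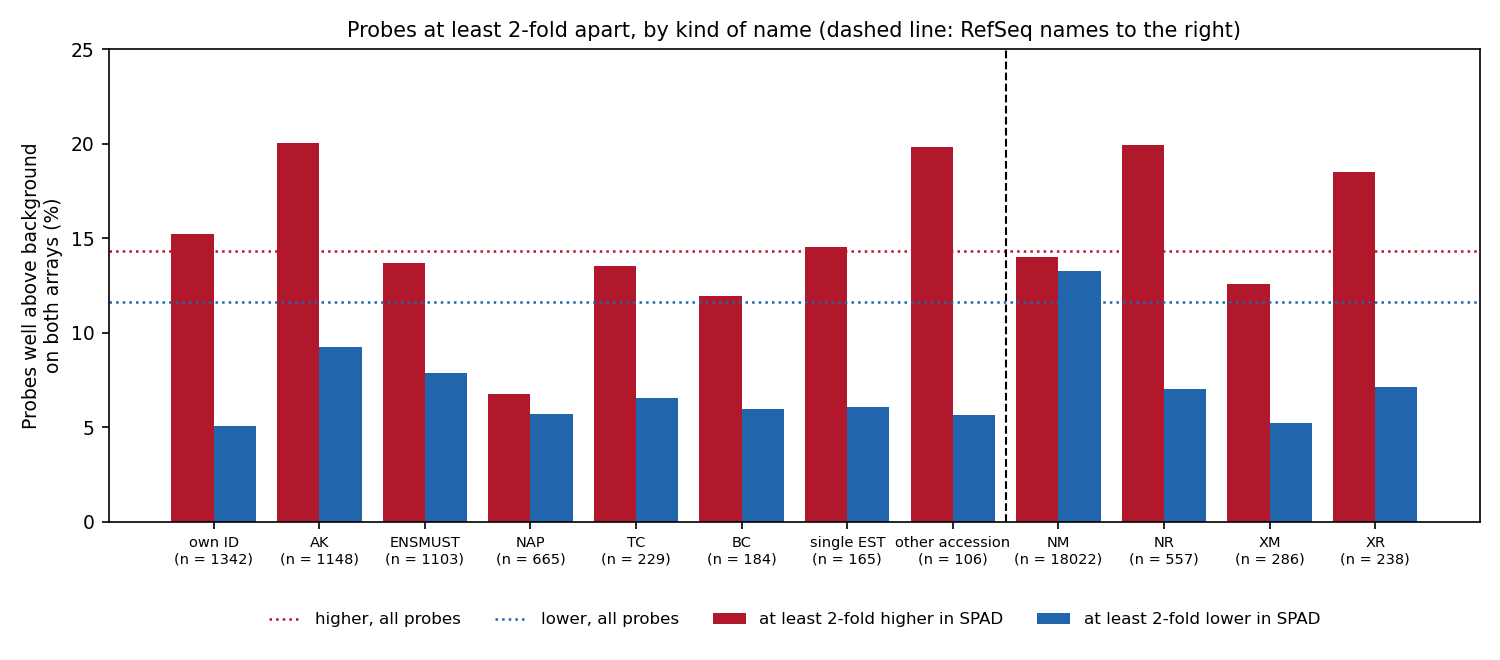
Share of probes detected on both arrays (percent) past 2-fold in either direction in SPAD relative to SVCD, by class of name, with arrays scaled to their 75th percentile. The members' classes have lower shares between 5.07% and 9.23%, and NM probes had 2520 higher and 2387 lower.

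Members detected on both arrays had median intensities of 160.3 in SPAD and 157 in SVCD, and RefSeq probes 411 and 449.6, so the counts were also taken at like signal, in 7 ranges of the mean scaled log2 signal of both arrays. The share of members lower in SPAD was below that of RefSeq probes in each range. Between −4 and −2, for example, it was 10.2% of 1280 members against 18.2% of RefSeq probes, and between −2 and 0 it was 11.4% of 766 against 15.4%. The share higher in SPAD showed no single order, with 18.7% against 17.7% and 17.5% against 14.9% in these ranges, and 11.6% against 12.3% between 0 and 2. Between 2 and 4, 11.6% of 398 members were higher and 6.53% lower, beside 10.3% and 9.67% of RefSeq probes. In the dimmest range, below −5, 8.88% of 439 members were higher and none lower, and for RefSeq probes the shares were 11.6% and 0.391%. Detection on both arrays leaves little room for a 2-fold lower SPAD value there, so this range says little about an order. The 4405 members detected on neither array had a median difference of 0.45, with median intensities of 2.97 and 2.35, and RefSeq probes detected on neither also had 0.45. The lowest signal marked well above background was 10.8 in SPAD and 8.60 in SVCD, a gap of 0.45 on the scaled log2 scale. A difference near the background therefore starts above 0. Among probes brighter than −4 the members counted 569 higher and 303 lower, or 65.3% higher, and RefSeq probes 2325 and 2261, or 50.7%. The NR and XR probes among the latter counted 116 and 42, or 73.4% higher. Their lower share was 9.27% between −4 and −2 and 8.66% between −2 and 0, below that of the members.

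**Figure D3:**
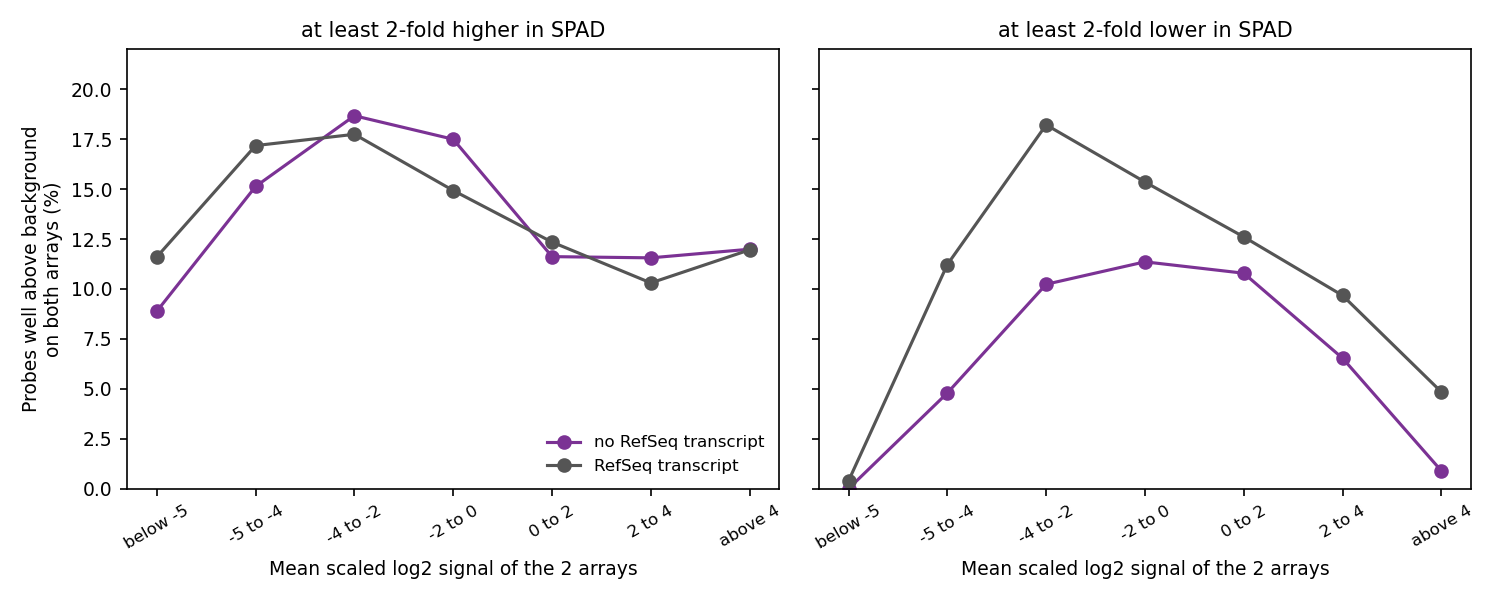
Share of probes past 2-fold upwards and downwards in SPAD (percent, 75th percentile scaling), by mean scaled log2 signal, for members and RefSeq probes. The members' lower share lies below that of RefSeq probes in all 7 ranges. Below −5 no member was lower, but detection on both arrays leaves little room for a lower SPAD value there.

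The brightest range, above 4, held 784 members. Of these, 94 (11.99%) reached 2-fold upwards in SPAD and 7 (0.893%) downwards, and 163 (11.96%) and 66 (4.84%) of 1363 RefSeq probes were. Own-ID probes made up 320 of the 784. Most of them were alike on both arrays, with 218 inside 0.5 of 0 in either direction. In contrast, 55 (17.2%) were past 2-fold upwards and 0 downwards. These counts were 50 and 0 after quantile normalization and, with spike-in scaling, 16 and 58. Of the 55, 22 lay between 1 and 1.5, 19 between 1.5 and 2, 13 between 2 and 3, and 1 above 3. The 55 are probes, not transcripts: the files name no target for them, and whether several read the same RNA was not tested. The other 464 bright members counted 39 (8.41%) higher and 7 (1.51%) lower. Among the 268 bright NAP probes 12 were higher and 2 lower, and among the 30 bright AK clones 10 were higher and 0 lower. Spots of this brightness repeated closely on an array, with an SD of 0.04 for a log2 difference between single repeat spots.

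The bright own-ID probes past 2-fold included A_55_P1967002, chosen after its values were seen, with an intensity of 87871 in SPAD and 7688 in SVCD, a difference of 3.64. A_55_P1978866, chosen likewise, read 153039 and 27813, a difference of 2.59. Among bright members with a public name, ENSMUST00000020081 read 41702 and 6386 (2.83) and AK149472 read 82983 and 15391 (2.56), both also chosen after their values were seen. On each of these 4 probes SPAD was the brighter array, and they were chosen with that known. The 5 ENSMUST and 2 NAP probes were the bright members lower in SPAD, with ENSMUST00000081342 at 3830 and 77462 the furthest down. ENSMUST00000102968 read 4749 and 38406, a difference of −2.89.

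**Figure D4:**
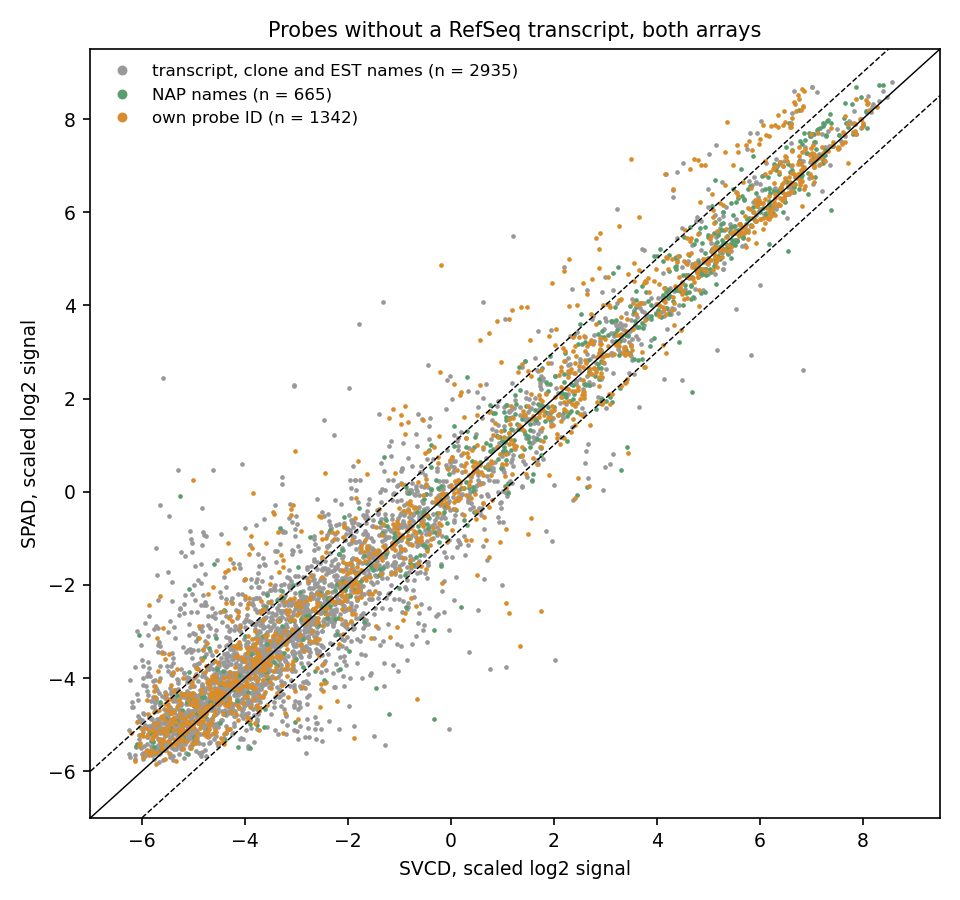
Scaled log2 signal in SPAD against that in SVCD for the members detected on both arrays. Own-ID probes, NAP probes and all other classes pooled have their own colours, and dashed lines mark 2-fold in either direction. Above a mean signal of 4 the own-ID probes hold 55 points past 2-fold upwards and 0 downwards.

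The 8 brightest members were 5 ENSMUST transcripts and 3 NAP probes, and they differed by 0.01 to 0.83. ENSMUST00000082402 read 277452 in SPAD and 257530 in SVCD, and ENSMUST00000078451 read 222114 and 241019. NAP112175-1 stood furthest apart of the 8, at 257784 and 158266. None of the 8 reached 2-fold, and the sign of these small differences depended on the scaling: 4 of the 8 turned negative after quantile normalization and all 8 with spike-in scaling.

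The 12 highest differences came from each class of name but BC. ENSMUST00000103426 led them with a mean intensity of 3374 in SPAD and 14.8 in SVCD. It was printed on 10 spots, which ran from 3191 to 3788 in SPAD and from 8.61 to 20.6 in SVCD, so that spots of the arrays did not overlap. The difference was 8.02 ± 0.44 (SD over 10 spots of 1 array each), or 260-fold. With normexp background correction, which adds an offset to both arrays, it was 5.49, or 44.9-fold. CJ206177, a single EST, read 860 and 17.3, a 54.2-fold difference. AF209907, an accession of no larger class, read 7579 and 197, and the clone AK036325 read 10455 and 272, which were 42.0-fold and 41.9-fold. AK082498 read 508 and 13.5, and AK016494 read 3010 and 81.9. ENSMUST00000105900 read 3051 and 82.4. Of these 7 members, 5 were under an intensity of 100 in SVCD. With normexp CJ206177 was 13.6-fold and AK082498 8.93-fold higher, while AK036325, brighter in SVCD, was 34.0-fold higher.

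The other members among the 12 highest were of other classes but for another single EST. The own-ID probe A_55_P2039354 read 18037 in SPAD and 591 in SVCD, a difference of 5.06, and A_55_P2078611 read 746 and 21.2. NAP067572-1 read 587 and 17.6, TC1667565 read 859 and 27.7, and BY709204, a single EST, read 432 and 15.3. In 9 of the 12 highest members the SVCD intensity was under 100. The SD of a log2 difference between single repeat spots was taken by the mean signal of both arrays. It was 0.24 in the dimmest of 6 ranges and 0.12 in the next. For ENSMUST00000103426, dim in SVCD alone, the SD over its own spots was 0.44, larger than the 0.12 of its range. Among BC clones the highest were BC039787 at 334 and 30.6 (3.57), BC145649 at 1438 and 140 (3.49) and BC158068 at 10391 and 1053 (3.43).

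The lowest differences came from AK166854, with an intensity of 50.5 in SPAD and 2760 in SVCD, which was 50.1-fold lower in SPAD and 25.2-fold lower with normexp. ENSMUST00000153298 read 18.3 and 664, a difference of −5.06, and A_55_P2103706 read 62.2 and 1725, a difference of −4.67. AK041165 read 44.7 and 1143. ENSMUST00000081342, already named among the bright members, was the only one of the 12 lowest that was bright on both arrays, with a difference of −4.21 ± 0.04 (SD of single repeat spots at this signal). In 10 of the 12 lowest members the SPAD intensity was under 100. Of the 41 named members past 2-fold on both arrays, 31 came out over 1.5 times smaller with normexp, and all 41 kept their sign and stayed past 2-fold. These 41 were named for their large differences, so their kept signs say little about smaller ones.

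A further 2 of the 12 lowest had a second probe. ENSMUST00000169692 read 45.7 in SPAD and 1423 in SVCD on the probe detected on both arrays. Its second probe read 2.92, not well above background, and 243, which was at least 20.6-fold lower in SPAD when set against the lowest detected signal of that array. NAP102625-1 read 21.1 and 545 on its first probe, and 8.25 and 167, at least 14.2-fold lower, on its second. Both probes of each name were lower in SPAD. The remaining members of the 12 were A_55_P2063146 (a difference of −4.32), ENSMUST00000058196 (14.4 in SPAD and 281 in SVCD), A_55_P2091193 (28.3 and 432), TC1642106 (57.3 and 869) and ENSMUST00000105520 (16.4 and 241). Among BC clones the lowest were BC054111 (−2.87), BC045142 (−2.86) and BC082783 (−2.36).

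**Figure D5:**
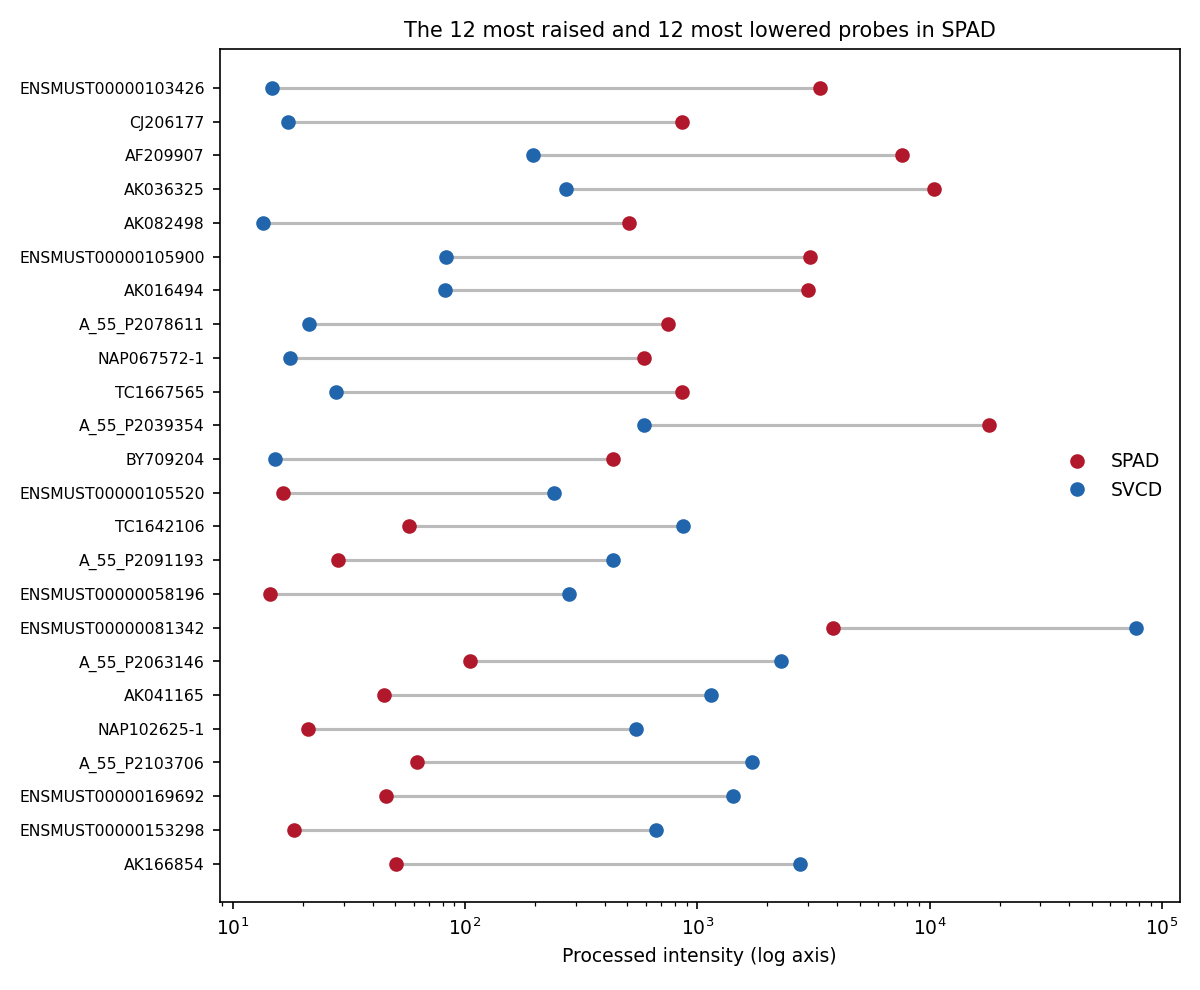
Processed intensity (log axis) in SPAD and SVCD of the 12 members with the highest and the 12 with the lowest log2 difference, 1 point per array. The highest run down from ENSMUST00000103426 at 3374 and 14.8, and the lowest end at AK166854 at 50.5 and 2760.

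Members detected on 1 array have only a bound, taken against the lowest detected signal of the other array or the probe's own signal there, whichever was higher. Of the 432 members detected in SPAD alone, 308 (71.3%) were at least 2-fold higher by this bound, beside 74% of all such probes on the array. Of the 499 detected in SVCD alone, 126 (25.3%) were at least 2-fold lower in SPAD, beside 34.3% of all such probes. AK153587 had the largest bound in SPAD, with an intensity of 233 against 2.13, at least 29.6-fold higher. The EST BE864244 read 218 and 5.72 (at least 27.6-fold), and the EST AI987986 read 175 and 5.59 (at least 22.2-fold). In SVCD alone, A_55_P2024391 read 325 against 6.53 in SPAD, at least 27.6-fold, and AK084291 read 201 against 6.36, at least 17.1-fold. By the rule that chose them, none of these 5 members was well above background on the other array.

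A name covered by several probes gives a check within an array pair. Of the members, 89 names had 2 or more probes detected on both arrays, 185 probes in all. In 81 of them the probes lay within 1 log2 unit, beside 2822 of 3293 RefSeq transcripts. Only 21 of the 89 had a probe past 2-fold, so a range within 1 says little about agreement in the others. The median range of the 89 was 0.15, beside 0.33 for the RefSeq transcripts, and these ranges were not compared at like signal. Of the 21 names with a probe past 2-fold, 9 had every probe past it in the same direction, 17 had probes of 1 sign, and in 4 the signs differed. No name had probes past 2-fold both ways. Of 1157 such RefSeq transcripts, 493 had every probe past it in the same direction and 1019 had probes of 1 sign. In 138 of them the signs differed, and 9 had probes past 2-fold both ways. The clone AK141540 had 107736 in SPAD and 24038 in SVCD on one probe and 344 and 71.0 on the other, differences of 2.29 and 2.40. AB041803 gave 1.99 and 1.96, and NAP111644-1 gave −2.47 and −2.56. In contrast, the 3 probes of ENSMUST00000179907 gave −0.67, 0.62 and 1.32, all at intensities under 100, and those of NAP113099-1 gave −1.60, −0.35 and 0.18.

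Beside ENSMUST00000103426, 7 members were printed on 10 spots. ENSMUST00000089450 ran from 96.5 to 108 in SPAD and from 23.6 to 31.2 in SVCD, with a difference of 1.98 ± 0.13 (SD over spots). ENSMUST00000049389 ran from 42.8 to 54.3 and from 151 to 175, with a difference of −1.68 ± 0.13. BC144938 ran from 7889 to 8984 and from 4369 to 4806, with a difference of 1.01 ± 0.02. In these 3 members the spots of the arrays did not overlap. AK018620, over 9 kept spots, ran from 30.2 to 41.3 and from 27.1 to 35.5 and did overlap. AK053689 was detected in SPAD alone, at 51.1 against 7.33, and ENSMUST00000062118 and BC092269 were detected on neither array. Spots of 1 array share its RNA and its hybridisation, so this spread is that of the measurement only.

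The names led to few genes. In a RefSeq gene table (assembly GRCm38.p6), 18 members matched the symbol or a synonym of 17 genes, of which 10 are protein-coding, 6 are long non-coding RNAs and 1 is a pseudogene. The other 10260 members stay under the names of the files. Of the 18, 9 were detected on both arrays, 8 on neither and 1 in SPAD alone, and 0 of the 9 were past 2-fold. The one detected in SPAD alone was BC026991 of Samd11, which read 25.5 in SPAD and 2.14 in SVCD, at least 3.23-fold higher. The RefSeq probe of Samd11 read 620 and 5.94, at least 78.7-fold higher, so both probes were above background in SPAD alone. Samd11 encodes a protein with a sterile alpha motif. For 4 genes a member and a RefSeq probe were both detected on both arrays. They gave −0.39 and −0.40 for Cdk10, a cyclin-dependent kinase, and 0.97 and 0.44 for Slc66a1, a lysosomal amino acid transporter. They gave −0.08 and −0.05 for Zkscan7, a zinc finger gene, and for Zc3h3, a gene of messenger RNA export, both read 0.00 in size. All 4 pairs lay within 1 log2 unit, but none of their probes reached 2-fold, so this says little about agreement.

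Members of known gene but detected on neither array included Lrrc7, Abat, Dnah3 and Rmnd5a. The member of Abat, an enzyme that breaks down GABA, read 14.5 and 8.26, where a RefSeq probe of Abat was detected at 132 and 167. The member of Rmnd5a read 13.1 and 2.59, where RefSeq probes of that gene read 411 and 263 on one and 247 and 181 on the other. A gene detected through its RefSeq probe could thus lack signal on its member probe. The long non-coding RNA BC040756 was detected at 294 in SPAD and 186 in SVCD, a difference of 0.78. The pseudogene BC085271 gave 0.12 and 0.05 on its 2 probes.

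The probes of the array belong to several design series, given by the start of the probe ID. Most members detected on both arrays, 4258, were in series A_55, with 626 higher and 285 lower, or 68.7% higher of those past 2-fold, against 52.5% of RefSeq probes in that series. In A_66 the shares were 77.1% (37 higher and 11 lower) and 54.9%, in A_51 60.9% and 51.3%, in A_52 58.6% and 53.8%, and in A_65, with 3 members higher and 3 lower, the RefSeq share was 46.9%. In each of these 5 series the members' share lay above that of the RefSeq probes.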

How the data were processed

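RNA of 1 SPAD and 1 SVCD sample was read on 1-colour Agilent arrays of the same slide. Per the submitters' processing notes, Agilent Feature Extraction (version 10.7.3.1) turned the scans into the deposited values. Per the file headers, the deposited scanner files hold background-subtracted processed intensity on a linear scale with detection marks. A second deposited table holds log2 values of the authors, centred on each probe; the sources used here do not give its scaling. It was used as an alternative, and its columns have medians of 0.16 and -0.16.

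Of 44397 spots per array, 1377 control spots and 73 and 85 outlier spots were left out, and 0 others were saturated. Repeat spots were averaged and called by the majority, and 2 members had no spot left. The main value was log2 intensity minus the array's 75th percentile (622 in SPAD and 678 in SVCD). Counts used a log2 difference of at least 1, a 2-fold change, in probes well above background on both arrays. With 1 array per group, depth has no meaning, the number of arrays limits the precision, and no test was run. The SD of single repeat spots came from 274 probes with at least 8 of 10 spots kept.

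The members and lists were chosen with earlier results of these data known. Named members were the 12 highest, 12 lowest and 8 brightest, 6 bounds in each direction and 3 in each direction in prefixes of 100 or more probes, given in part; others are said to be chosen after their values were seen. The 8 classes pool prefixes and were set after the names were seen. Groupings by clone tissue and by gene name, and the pathway lists, were planned but could not be run, because the files used here hold no gene name or description column. Names came from a RefSeq gene table by symbol or synonym. Alternatives were quantile and median scaling, normexp background correction in limma 3.58.1 (offset 50, on median in place of mean signal), other filters, bounds, the deposited table and, chosen after seeing the data, spike-in scaling and a 4-fold limit. Python 3.11.15 was used, and counting and scaling were tested on simulated data.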

Additional observations from a re-analysis of the deposited data

How the results depend on the processing

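The members' share higher in SPAD among those past 2-fold, 68.1% as reported, exceeded that of RefSeq probes in all 11 settings tried, by 4.39 to 20.8 percentage points. It was 63.2% with quantile normalization and 63.5% with median scaling. The share of the RefSeq NR and XR probes lay above that of the members in each of the 11 settings. It was 73.5% as reported, 69.7% with quantile normalization and 23.3% with spike-in scaling. With normexp 425 members (8.60%) were higher and 189 (3.82%) lower, beside 9.26% and 8.72% of RefSeq probes. Without a filter on dim probes the counts were 1705 (16.6%) and 713 (6.94%), beside 15.8% and 12.3% of RefSeq probes. The members' median difference was then 0.44, close to that of undetected probes (0.45). With the software's milder detection mark the members counted 1250 (18.1%) and 547 (7.92%), beside 16.5% and 13.5%. At least 4-fold apart were 221 (4.47%) and 97 (1.96%), beside 4.16% and 4.39%. Spike-in scaling gave 281 higher (5.69%) and 1476 lower (29.9%), beside 4.94% and 37.6%. The members' share higher was then 15.99% and their median −0.71. Spike-in scaling and the 4-fold limit were chosen after seeing the data. The cause of these changes was not tested, beyond the larger fold limit and the number of probes admitted. Of the 49 named members detected on both arrays, the 41 past 2-fold kept their sign in the 6 settings run for them. They were named for large differences, the smallest in size being −1.88, so their kept signs say little about smaller differences. Normexp made 31 of the 41 over 1.5 times smaller and spike-in scaling 21. Of the 8 under 2-fold, 4 changed sign with quantile normalization, 2 with median scaling, 1 with the percentile over detected probes and 8 with spike-in scaling. Of the 8 class medians, 3 turned negative with quantile normalization (NAP −0.09), 2 with median scaling, 1 over brighter probes and 8 with spike-in scaling. No paired analysis was possible because each group has 1 array, and for the same reason no replicate could be left out. Groupings by clone tissue, gene name and pathway list were not run, for want of those columns.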
